A study of Rattus norvegicus with 18 samples.

Results

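Heat shock proteins were followed in the C6-C8 dorsal root ganglia (DRG) of 18 adult Lister hooded rats. Of 9 heat shock genes on the list, 8 had a row among the 15075 RefSeq identifiers of the count table, namely *Hspa2*, *Hspa5*, *Hspa8*, *Hspb1*, *Hspb8*, *Hsp90aa1*, *Hsph1* and *Dnajb1*. No row could be assigned to *Hspa1b*, which is not analysed here. The genes were named by family, with earlier results of these data known. *Hspa2* was instead selected on its read counts, which were lower after injury in these rats. Its differences between groups are therefore described without a test.

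There were 6 rats in each of 3 groups. Naïve rats were unoperated and received no injection. In the bPYX+GFP and bPYX+NT3 groups both corticospinal tracts had been cut in the medullary pyramids (bPYX), and the next day the forelimb flexors of one side were injected with an AAV1 vector in which the CMV promoter drove either green fluorescent protein (GFP) or human neurotrophin-3 (NT3). Ganglia were taken 10 weeks after injury, and those of the treated side of each rat made 1 library. Surgery, vector and injury cannot be told apart between the naïve and the injured groups, because no rat had surgery or vector alone.

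Heat shock proteins keep other proteins folded. The HSP70 proteins bind unfolded stretches in a cycle driven by ATP, J-domain proteins such as DNAJB1 deliver clients and start ATP hydrolysis, and HSP110 proteins such as HSPH1 exchange the spent nucleotide. HSP90 acts later, on kinases and steroid receptors, and the small heat shock proteins hold clients that have begun to unfold. In sensory ganglia HSPB1 is known for its part in neuronal survival and axon growth after nerve injury. Transcription of many of these genes is raised by heat shock factor 1 through heat shock elements, which are inverted GAA units, whereas *Hspa5* is raised by the unfolded protein response through ER stress elements.

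The bases before the annotated starts were searched for these elements by their letters alone, and the start used in DRG may be another one. RefSeq (build GRCr8) gave the 250 bases before the start for 7 of the 9 genes, and gave none for *Hspa1b* and *Hsp90aa1*. Both strands were searched for GAANNTTC and TTCNNGAA (2 units of the heat shock element, which read the same on both strands), for GAANNTTC followed by NNGAA (3 units, made of overlapping 2-unit matches) and for CCAAT and CCACG with 9 bases between them (the ER stress element). Printed below are the 4 genes that the results turn on, 5′ to 3′ on the gene's strand and ending at the base before the start, with matches in capitals.
Hspa2, chr6:100864192-100864441, plus strand: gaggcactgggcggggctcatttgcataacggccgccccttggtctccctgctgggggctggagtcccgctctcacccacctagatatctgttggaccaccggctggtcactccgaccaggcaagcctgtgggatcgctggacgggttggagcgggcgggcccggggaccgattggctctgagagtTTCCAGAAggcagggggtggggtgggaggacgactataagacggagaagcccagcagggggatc
Hspa8, chr8:50080264-50080513, plus strand: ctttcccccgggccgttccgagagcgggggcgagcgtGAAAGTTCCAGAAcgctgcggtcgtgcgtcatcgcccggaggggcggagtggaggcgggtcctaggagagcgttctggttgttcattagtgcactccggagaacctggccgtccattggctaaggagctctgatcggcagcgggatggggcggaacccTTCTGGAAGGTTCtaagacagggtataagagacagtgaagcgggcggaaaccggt
Hspb1, chr12:26432302-26432551, minus strand: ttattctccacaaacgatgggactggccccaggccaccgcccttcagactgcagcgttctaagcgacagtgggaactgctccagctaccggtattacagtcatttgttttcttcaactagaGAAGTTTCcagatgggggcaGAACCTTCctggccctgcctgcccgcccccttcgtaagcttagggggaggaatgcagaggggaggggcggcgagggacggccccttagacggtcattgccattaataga
Hspa5, chr3:38452766-38453015, plus strand: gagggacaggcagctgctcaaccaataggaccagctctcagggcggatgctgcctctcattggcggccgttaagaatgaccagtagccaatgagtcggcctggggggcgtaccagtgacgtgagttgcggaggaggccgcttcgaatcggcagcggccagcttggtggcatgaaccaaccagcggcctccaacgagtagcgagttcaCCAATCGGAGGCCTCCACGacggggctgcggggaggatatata

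At least 1 heat shock element of 2 units was found in 6 of the 7 genes, against 13.5% of 33469 promoters of the same length. *Hspa2* had 1, from 64 to 57 bases before its start. *Hspa8* had 2 elements of 3 units, at 213 to 201 and at 55 to 43 bases. *Hsph1* had 1 of 3 units at 36 to 24 bases and a further 2-unit match at 105 to 98, and 3-unit matches were in 0.663% of all promoters. *Hspb1* had separate 2-unit matches at 129 to 122 and at 109 to 102 bases, *Hspb8* 1 at 23 to 16 and *Dnajb1* 1 at 11 to 4. *Hspa5* was the exception, with no heat shock element and 1 ER stress element at 43 to 25 bases, a match found in 0.0657% of all promoters. The map of these matches sets them beside those of other chaperone genes named below.

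**Figure D1:**
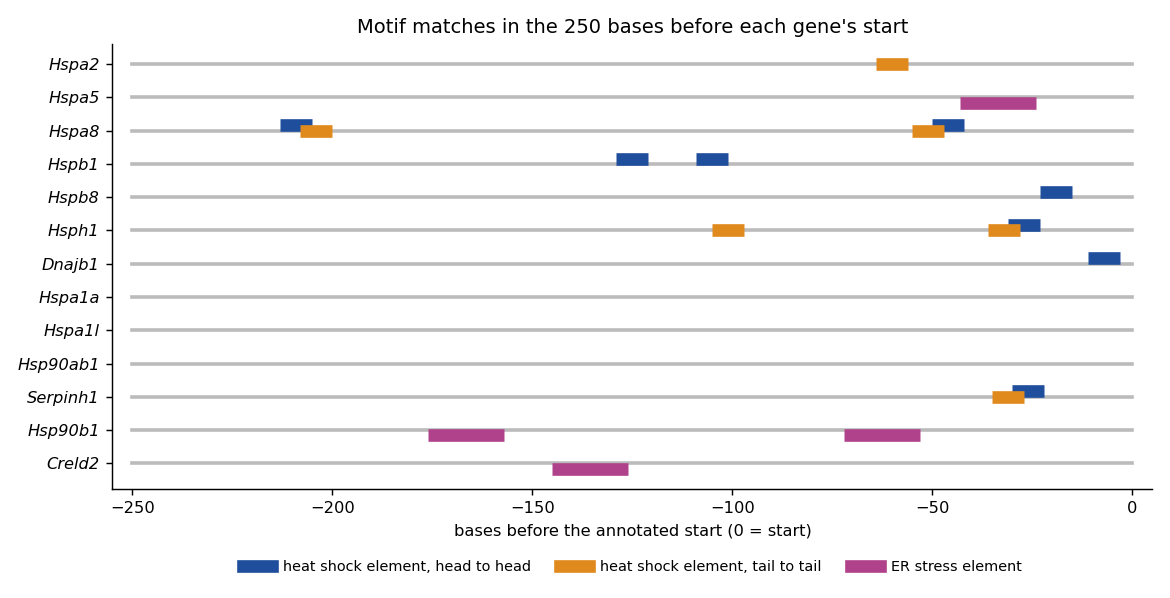
Matches to heat shock elements of 2 units and to the ER stress element in the 250 bases before the annotated start of 13 genes, by distance from the start in bases. Of the 7 listed heat shock genes with a promoter entry, *Hspa5* is the one with the ER stress element and without a heat shock element. Of the other genes mapped, *Serpinh1* has heat shock elements, and *Hspa1a*, *Hspa1l*, *Hsp90ab1*, *Hsp90b1* and *Creld2* have none. *Hsp90b1* and *Creld2* have ER stress elements.

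The libraries held between 10057787 and 16002410 read-pairs on genes, and values are counts scaled to the depth of the library after TMM normalization (CPM). Markers matched the label of the tissue: the 12 neuron markers summed to between 12506 and 16013 CPM per rat and the 8 satellite glia markers to between 1631 and 1879 CPM, while the 7 skeletal muscle markers measured summed to between 3.23 and 15.5 CPM. The libraries of rat 57 (bPYX+GFP) and rat 11 (bPYX+NT3) stood apart from the others on the first principal component, with scores of -43.4 and -52.9 where the other 16 rats lay between -21.4 and 28.8. They also had the lowest shares of read-pairs on no annotated feature, 31.7% and 30.8% against 32.5% to 34.6%. The counts attached to 17 of the 18 deposited sample records belonged to a rat of another group, so groups were taken from the columns of the joint count table, which hold the same counts for 18 of 18 rats. In bulk tissue, fewer cells of a type and less RNA per cell cannot be told apart.

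*Hspa2* encodes an HSP70 protein best known for its need in spermatogenesis. Its level in naïve rats ran from 43 to 57 CPM with a median of 46.8, in bPYX+GFP rats from 35.3 to 41.1 with a median of 37.9, and in bPYX+NT3 rats from 36.5 to 54.8 with a median of 40.7. All 6 bPYX+GFP rats lay below the lowest naïve rat, whereas 4 of 6 bPYX+NT3 rats did and the other 2 lay within the naïve range. Of 11601 genes, 0.198% were likewise lower in bPYX+GFP rats without overlap, and nothing is read from this because the fall chose the gene. Mean levels were 49 ± 5.91 CPM (naïve), 38.3 ± 2.33 CPM (bPYX+GFP) and 42.9 ± 7.14 CPM (bPYX+NT3; SD, n = 6). Against naïve rats the fitted log2 fold change of *Hspa2* was -0.36 (SE 0.079) with GFP and -0.19 (SE 0.11) with NT3, and that of NT3 against GFP was 0.17 (SE 0.099). In order of level the naïve rats came first, then bPYX+NT3, then bPYX+GFP, and neighbours in this order overlapped.

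**Figure D2:**
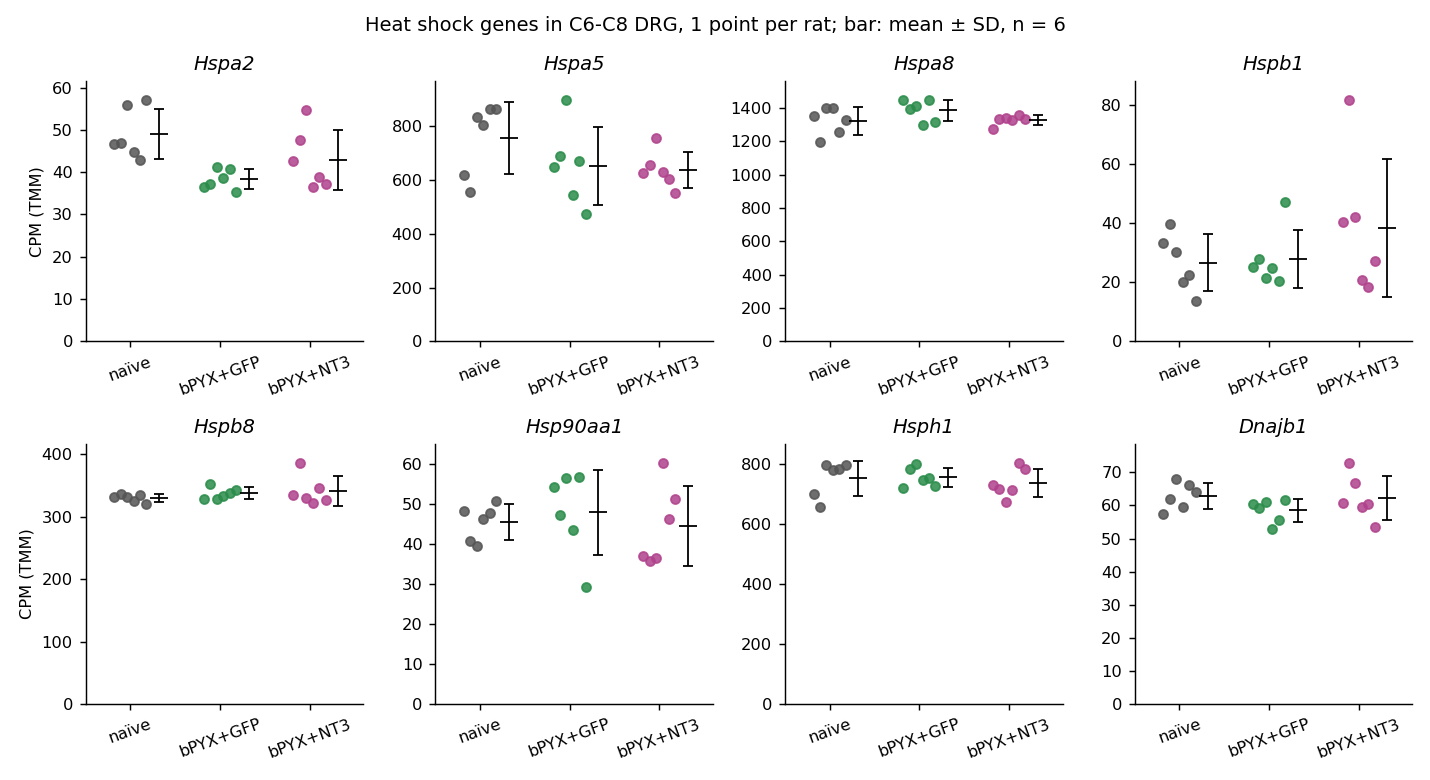
Level of 8 heat shock genes in each rat (CPM after TMM scaling, linear axes from 0), with 1 point per rat and the mean ± SD of the 6 rats of a group beside them. In *Hspa2* the bPYX+GFP rats (35.3 to 41.1) lie below all naïve rats (43 to 57), and in *Hspb1* rat 11 of the bPYX+NT3 group reaches 81.6.

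Some cell type marker lists were lower in injured rats, as *Hspa2* was, and others were higher, but no list passed the adjusted test. The 10 Schwann cell markers, all of them detected, summed to 3764 to 5199 CPM in naïve, 3351 to 4211 in bPYX+GFP and 3706 to 4192 in bPYX+NT3 rats. Their mean log2 level differed by -0.29 between bPYX+GFP and naïve rats (two-sided exact permutation test, p = 0.0628, adjusted p = 0.634 over 33 tests of 11 lists) and by -0.09 for NT3 against naïve (p = 0.509, adjusted p = 0.828). The same differences for GFP against naïve were -0.12 for macrophage markers (exact permutation p = 0.652) and -0.07 for satellite glia markers (exact permutation p = 0.455). For NT3 against naïve both were higher, by 0.072 and 0.037 in the same order. The 5 fibroblast markers measured, of 6 listed, differed by -0.26 for GFP against naïve (p = 0.026, adjusted p = 0.571, exact permutation test) and by -0.30 for NT3 against naïve (p = 0.0346, adjusted p = 0.571, exact permutation test). The remaining lists ran from -0.007 (erythrocyte markers) to 0.395 (skeletal muscle markers) for GFP against naïve, with neuron markers at 0.088. With group means removed, *Hspa2* and the Schwann cell markers had r = 0.411 (permutation p = 0.106, adjusted p = 0.286 over 104 tests) and rho = 0.465 (permutation p = 0.0731, adjusted p = 0.245) over 18 rats, and r = 0.462 without rats 15 and 41. The same r for fibroblast markers was -0.03. The part of either cell type in the level of *Hspa2* was not tested.

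The genes whose pattern over the 18 rats was most like that of *Hspa2*, by Pearson r of log2 CPM among 11820 genes, were *Shc4* (r = 0.918), which encodes an adaptor of receptor tyrosine kinases, *Map4k4* (0.871), a kinase, *Cers2* (0.864), a ceramide synthase, *Ctnna1* (0.856), which encodes alpha-catenin, and *Plaat3* (0.836), a phospholipase and acyltransferase. These rats chose *Hspa2*, so the values describe likeness and carry no test. Within groups the values for the same 5 genes were 0.878, 0.758, 0.781, 0.757 and 0.713. Of the other heat shock genes, *Dnajb1* (r = 0.593) ranked 175 and *Hspa5* (r = 0.567) ranked 221, and the other five lay between -0.23 and 0.096.

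Between bPYX+GFP and naïve rats, the other 7 heat shock genes did not pass the test: 0 of 7 had an unadjusted p under 0.05, where 3.25% of 11601 genes did (edgeR quasi-likelihood test). Their log2 fold changes ran from -0.21 (*Hspa5*) to 0.07 (*Hsp90aa1*) with a median of 0.03, beside a median of 0.01 over all genes, and the smallest p was 0.118 (adjusted p = 0.9998). Exact permutation tests gave 0 of 7 as well, and the smallest p that 6 against 6 rats allow is 0.00216. No gene of all those tested passed at an adjusted p under 0.05 in this or either other comparison, while 13 did with edgeR's likelihood ratio test and 12 with DESeq2 between bPYX+GFP and naïve rats, 17 with the no-feature share added as a term and 1 without rat 57.

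*Hspa8* encodes the constitutive cytosolic HSP70. It ran from 1199 to 1402 CPM in naïve rats (median 1340), from 1300 to 1447 in bPYX+GFP rats (median 1406) and from 1275 to 1361 in bPYX+NT3 rats (median 1334). The 3 ranges overlapped, and no bPYX+NT3 rat lay above the bPYX+GFP median. Against naïve rats *Hspa8* had a log2 fold change of 0.07 with GFP (95% interval -0.05 to 0.19) and 0.01 with NT3 (-0.11 to 0.12), and NT3 against GFP gave -0.06 (-0.16 to 0.04). The last of these had an exact permutation p of 0.0671, which was 0.0216 without rat 21 and 0.039 without rat 57, while edgeR gave p = 0.203 (adjusted p = 0.8512). Median depth was lowest in the bPYX+GFP group, and within groups *Hspa8* was lower in deeper libraries (below). The part of depth in the difference between NT3 and GFP was not tested.

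The cochaperones that turn the HSP70 cycle gave no edgeR call in any comparison. In naïve, bPYX+GFP and bPYX+NT3 rats, the coefficient of variation of *Hspa8* was 6.15%, 4.57% and 2.15%. In the same order it was 6.37%, 5.96% and 10.6% for *Dnajb1*, and 7.91%, 4.19% and 6.48% for *Hsph1*. *Dnajb1* ran from 57.4 to 68.1 CPM in naïve rats (median 63.0), from 53.0 to 61.8 in bPYX+GFP rats (median 59.7) and from 53.6 to 72.8 in bPYX+NT3 rats (median 60.5). The naïve median was above all 6 bPYX+GFP rats, with a log2 fold change of -0.10 (95% interval -0.24 to 0.03) that did not pass (exact permutation p = 0.0758, or 0.0303 without rat 41). For *Dnajb1*, NT3 against naïve gave -0.01 (95% interval -0.17 to 0.14) and NT3 against GFP gave 0.09 (-0.08 to 0.26). *Hsph1* ran from 655 to 795 CPM in naïve rats (median 781), from 721 to 800 in bPYX+GFP rats (median 749) and from 673 to 802 in bPYX+NT3 rats (median 723). Against naïve rats *Hsph1* had a log2 fold change of 0.01 with GFP (95% interval -0.12 to 0.14) and -0.03 with NT3 (-0.17 to 0.11).

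*Hspa5* encodes BiP, the HSP70 of the endoplasmic reticulum. It ran from 556 to 864 CPM in naïve rats (median 821), from 473 to 897 in bPYX+GFP rats (median 659) and from 554 to 758 in bPYX+NT3 rats (median 628). Naïve rats 41 and 42, at 620 and 556, lay among the injured rats, while the other 4 naïve rats lay above all bPYX+NT3 rats and above 5 of 6 bPYX+GFP rats.

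*Hspa5* was the single one of the 7 to pass between bPYX+NT3 and naïve rats, where 6.01% of 11693 genes did, with a log2 fold change of -0.25 (SE 0.11, edgeR p = 0.0463, adjusted p = 0.6068, exact permutation p = 0.113). Without rat 42 the exact permutation p was 0.0216. The edgeR call was lost on leaving out any one of naïve rats 43, 44, 45 and 49 or bPYX+NT3 rats 2, 11, 23, 39 and 40, with p between 0.0516 and 0.107, and it was lost with DESeq2's size factors, with library size alone, in 1 fit over the 3 groups and with a covariate for the no-feature share (p from 0.0503 to 0.115), while the log2 fold change stayed between -0.32 and -0.20 in the fits without 1 rat and between -0.25 and -0.19 in the other 4 fits. For GFP against naïve the log2 fold change was -0.21 (95% interval -0.53 to 0.11, edgeR p = 0.175, adjusted p = 0.9998, exact permutation p = 0.227). Without rat 18 it was -0.32 and passed the edgeR test. Naïve rats entered both comparisons, so the 2 values share their controls.

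*Hsp90aa1* encodes the inducible cytosolic HSP90. It ran from 39.6 to 50.9 CPM in naïve rats (median 47.0), from 29.2 to 56.8 in bPYX+GFP rats (median 50.9) and from 35.8 to 60.3 in bPYX+NT3 rats (median 41.6). Read-pairs that map to several places were not counted, and whether this lowered the level of *Hsp90aa1* was not tested. The spread was wider in both injured groups, with a coefficient of variation of 22.2% and 22.3% against 9.8% in naïve rats, and the lowest rat of each was the one whose library stood apart (rats 57 and 11). Rat 57 lay well below the next bPYX+GFP rat, at 43.5 CPM. Rat 11 instead lay close to rats 17 (36.6) and 2 (36.9), and rats 40 (51.2) and 23 (60.3) were the highest of that group. No comparison gave a call, with a log2 fold change against naïve rats of 0.07 with GFP (95% interval -0.22 to 0.36) and -0.04 with NT3 (-0.31 to 0.24), and of -0.11 for NT3 against GFP (-0.47 to 0.26).

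Of the 2 small heat shock proteins, *Hspb1* had the highest coefficient of variation of the 8 genes in each group, and *Hspb8* the lowest in naïve and bPYX+GFP rats but not in bPYX+NT3 rats. *Hspb8*, which acts with BAG3 in clearing damaged proteins, ran from 321 to 336 CPM in naïve rats (median 332), from 329 to 353 in bPYX+GFP rats (median 336) and from 322 to 386 in bPYX+NT3 rats (median 332). Its coefficient of variation was 1.8%, 2.8% and 6.91% in the same order, and its log2 fold changes lay between 0.02 and 0.04 with 95% intervals from -0.10 to 0.15.

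*Hspb1* ran from 13.5 to 39.6 CPM in naïve rats (median 26.5), from 20.3 to 47.1 in bPYX+GFP rats (median 25.1) and from 18.5 to 81.6 in bPYX+NT3 rats (median 33.9). The highest rat of each injured group was again rat 57 or rat 11. Its coefficient of variation was 36.1%, 35.4% and 60.6%, with between 157 and 1339 read-pairs behind a value. For NT3 against naïve its log2 fold change was 0.53 (95% interval -0.21 to 1.26, edgeR p = 0.145, adjusted p = 0.6068, exact permutation p = 0.314), and it was 0.16 without rat 11. NT3 against GFP gave 0.47 (95% interval -0.26 to 1.20), and 0.091 without rat 11. GFP against naïve gave 0.07 (95% interval -0.48 to 0.62), which turned to -0.16 without rat 57.

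**Figure D3:**
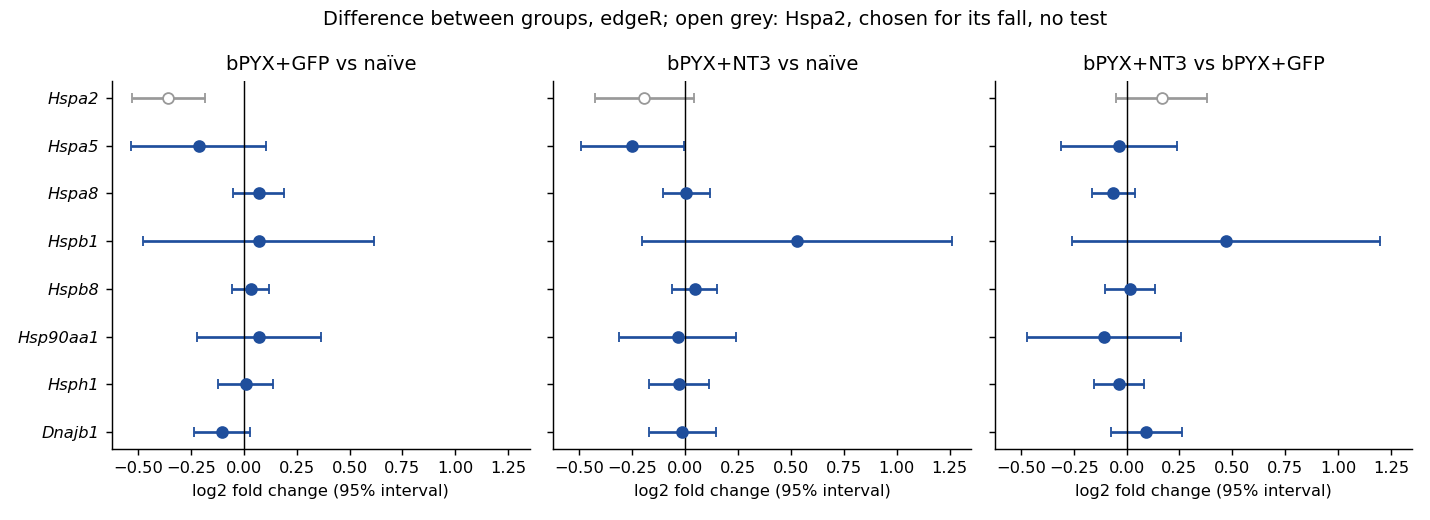
Log2 fold change of 8 heat shock genes in the 3 comparisons (edgeR quasi-likelihood fit, bars are 95% intervals), with *Hspa2* as an open grey point because its fall chose it. The interval of *Hspa5* between bPYX+NT3 and naïve rats (-0.50 to -0.005) is the only one of a tested gene that leaves out 0, and those of *Hspb1* are the widest.

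In the comparison that asks what NT3 changed after injury, bPYX+NT3 against bPYX+GFP, 0 of the 7 genes passed, where 1.73% of 11623 genes did. Their log2 fold changes ran from -0.11 (*Hsp90aa1*) to 0.47 (*Hspb1*) with a median of -0.04, beside a median of 0.00 over all genes, and the smallest p was 0.187 (adjusted p = 0.8512). Leaving out rats 11 and 57 together left that count at 0, and left 0 of 7 in the other comparisons.

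Whether the heat shock genes rose and fell together between rats of one group was asked in 28 pairs, with group means removed. A single pair passed: *Hspb1* and *Hsp90aa1* were opposed, with r = -0.758 (permutation p = 0.00024, adjusted p = 0.00672 over 28 pairs) and rho = -0.756 (permutation p = 0.00056, adjusted p = 0.0157) over 18 rats. This r was -0.798 without rats 11 and 49, the farthest from the median of *Hspb1*. It was -0.705 within naïve, -0.951 within bPYX+GFP and -0.797 within bPYX+NT3 rats. Without rat 57 it was -0.732 (permutation p = 0.00545, adjusted p = 0.0763) and without rats 11 and 57 it was -0.69 (permutation p = 0.0089, adjusted p = 0.125), so the pair did not pass in those fits. The share of all gene pairs that would pass was not counted, so the relation is not shown to be particular to these genes. The first principal component, on which rats 11 and 57 stood apart, held 45.8% of the variance.

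A measure of the libraries moved with both genes. The no-feature share, which is the share of read-pairs on no annotated gene, had r = -0.909 with *Hspb1* (permutation p = 1e-05, the smallest that the resamples can give, adjusted p = 0.00104 over 104 tests) and rho = -0.93 (permutation p = 1e-05, adjusted p = 0.00104). Without rats 11 and 57 the r was -0.836. For *Hsp90aa1* the same measure had r = 0.748 (permutation p = 0.00058, adjusted p = 0.0201) and rho = 0.721 (permutation p = 0.00137, adjusted p = 0.0441), with r = 0.548 without rats 11 and 57. The other 6 genes had an adjusted p above 0.05 with it, the lowest being that of *Hspb8* (r = -0.694, permutation p = 0.0132, adjusted p = 0.0803). Its part in the opposed levels of *Hspb1* and *Hsp90aa1* was not tested. How many of all genes move with the no-feature share was not counted.

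**Figure D4:**
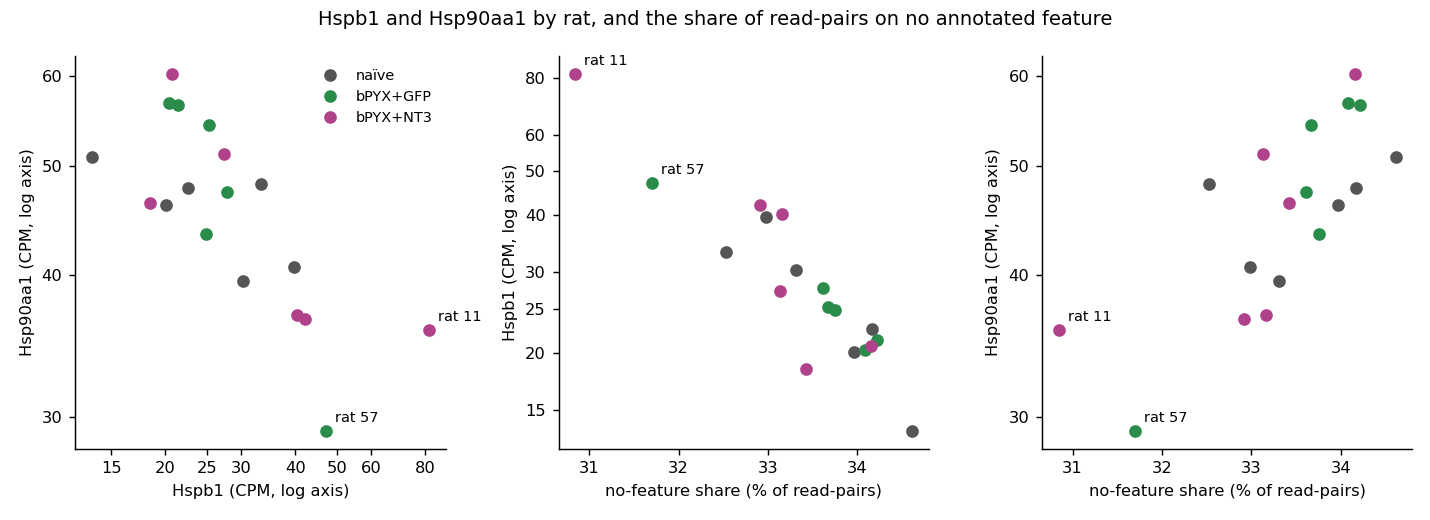
*Hspb1* against *Hsp90aa1* (left), and each against the share of read-pairs on no annotated feature (middle and right), with 1 point per rat coloured by group and log axes for CPM. *Hspb1* falls and *Hsp90aa1* rises as the share goes from 30.8% in rat 11 to 34.6%, and rats 11 and 57 lie at the end with the lowest shares.

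Other measures moved with *Hspb1*, *Hsph1* and *Hspa8* within groups. *Hspb1* had r = 0.767 with the 12 neuron markers (permutation p = 0.0016, adjusted p = 0.0333), rho = 0.628 (permutation p = 0.0124, adjusted p = 0.0904) and r = 0.49 without rats 11 and 57. With the 15 immediate early genes measured, it had r = 0.722 (permutation p = 0.00244, adjusted p = 0.0363), rho = 0.67 (permutation p = 0.0078, adjusted p = 0.0754) and r = 0.51 without rats 11 and 49. With the 7 macrophage markers it had rho = 0.717 (permutation p = 0.00209, adjusted p = 0.0441) and r = 0.621 (permutation p = 0.013, adjusted p = 0.0803), with r = 0.658 without rats 17 and 52. *Hsph1* was opposed to the 6 smooth muscle and pericyte markers, with r = -0.816 (permutation p = 0.00037, adjusted p = 0.0192), rho = -0.777 (permutation p = 0.00089, adjusted p = 0.0441) and r = -0.613 without rats 17 and 42, and to the 7 macrophage markers, with r = -0.721 (permutation p = 0.00133, adjusted p = 0.0333), rho = -0.705 (permutation p = 0.00212, adjusted p = 0.0441) and r = -0.786 without rats 17 and 52. *Hspa8* was lower in deeper libraries, with r = -0.738 (permutation p = 0.00211, adjusted p = 0.0363), rho = -0.699 (permutation p = 0.00365, adjusted p = 0.0553) and r = -0.693 without rats 18 and 44. No such list passed between groups: of 33 tests of 11 lists, 0 had an adjusted p under 0.05, and the 2 with an unadjusted p under 0.05 are those of the fibroblast markers above. The share of all genes that moves with each measure was not counted.

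The rest of the chaperone network was read from 8 lists of 128 genes, of which 106 were tested. Between bPYX+GFP and naïve rats 3 of the 106 passed, a share of 2.83% beside 3.25% of all genes. The 3 were lower, as were 292 of the 377 calls over all genes, and came from the 16 genes of the ER chaperones and unfolded protein response, whose median log2 fold change was -0.05 beside 0.01 over all genes. *Serpinh1*, which encodes the collagen chaperone HSP47, was at 95.2 ± 10.6 CPM in naïve and 70.6 ± 14.0 in bPYX+GFP rats (SD, n = 6), a log2 fold change of -0.43 (edgeR p = 0.00296, adjusted p = 0.8217, exact permutation p = 0.00866). *Creld2*, an ER stress gene, was at 12.1 ± 2.67 and 9.23 ± 1.37 CPM, a log2 fold change of -0.39 (edgeR p = 0.0239, adjusted p = 0.9998, exact permutation p = 0.0476). *Manf*, which encodes a secreted ER stress factor, was at 30.2 ± 3.00 and 26.1 ± 1.62 CPM, a log2 fold change of -0.21 (edgeR p = 0.0185, adjusted p = 0.9998, exact permutation p = 0.0152). The promoter of *Serpinh1* held a heat shock element of 3 units, that of *Creld2* an ER stress element, and there was no entry for *Manf*. *Serpinh1* and *Manf* passed in 12 of 12 fits without 1 rat, and *Creld2* in 9, with p between 0.0534 and 0.0673 without rat 43, 45 or 15. In the same rats the 5 fibroblast markers, collagen genes among them, summed to 2214 to 2987 CPM in naïve and 2042 to 2645 in bPYX+GFP rats, and their part in the *Serpinh1* difference was not tested. The count of 3 was 8 without rat 18, where 3.58% of all genes passed, and 5 without rat 41, 42 or 49, where 3.66%, 3.41% and 3.11% did.

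**Figure D5:**
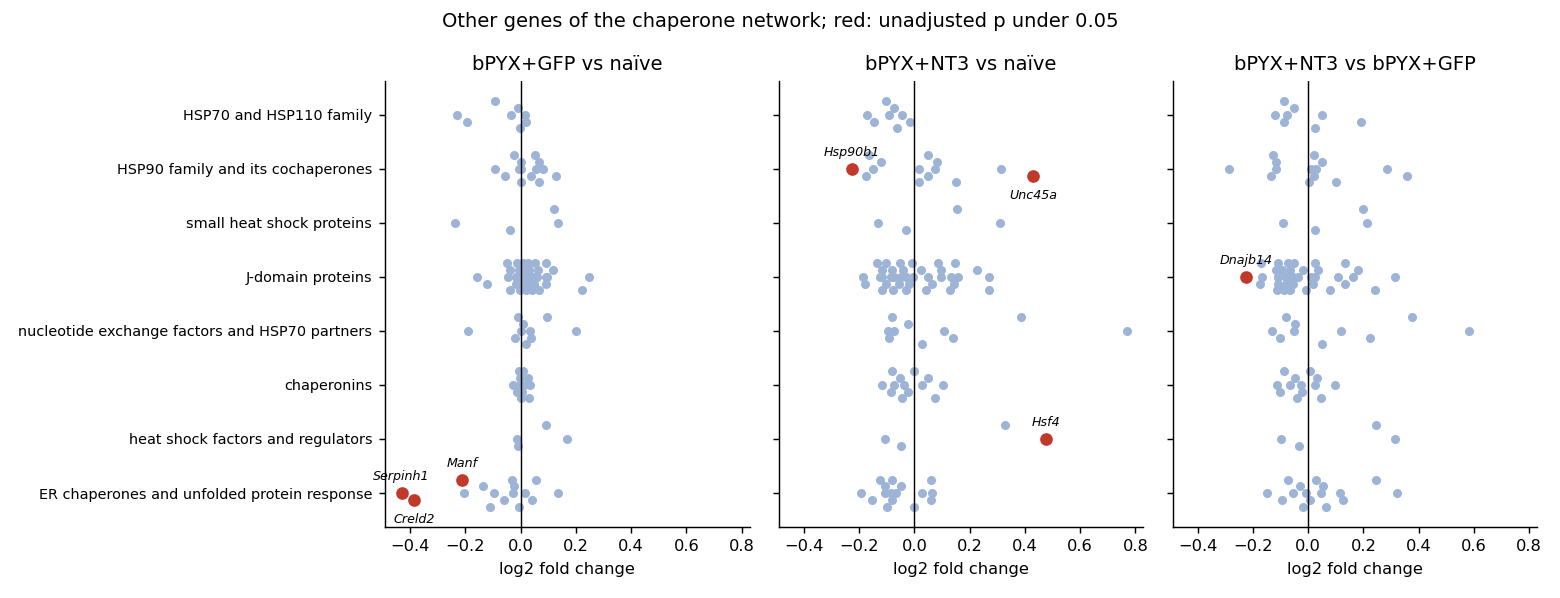
Log2 fold change of 106 other chaperone genes by list in the 3 comparisons (edgeR), with genes of unadjusted p under 0.05 in red and named. The 3 red points between bPYX+GFP and naïve rats are all lower and in the ER list, and 3 of 106 genes are red for NT3 against naïve.

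For NT3 against naïve 3 of the 106 passed, a share of 2.83% beside 6.01% of all genes. *Hsp90b1*, the HSP90 of the endoplasmic reticulum, was lower, at 879 ± 113 CPM in naïve and 753 ± 72 in bPYX+NT3 rats (SD, n = 6), a log2 fold change of -0.23 (edgeR p = 0.0267, adjusted p = 0.6068, exact permutation p = 0.0541). Its promoter held 2 ER stress elements and no heat shock element. The other two were higher, namely *Unc45a*, which encodes an HSP90 cochaperone, and *Hsf4*, a heat shock factor, with log2 fold changes of 0.43 and 0.48 and unadjusted p of 0.0435 and 0.0315 (edgeR, adjusted p = 0.6068 for both). Those 3 calls were lost without rat 11, where their log2 fold changes were -0.19, 0.25 and 0.32 in the same order, and without naïve rat 44, 45 or 49, and *Hsp90b1* and *Unc45a* were lost without rat 2 (*Unc45a* also without rat 17). The count was 0 without rat 44, 45 or 49, 1 without rat 2, 5 without rat 41 or 42, 8 without rat 23 and 7 without rat 39. Without rat 11 it stayed within 1.5 times of 3, from other genes of the lists, and 3.14% of all genes passed. The share of all genes called moved likewise, from 3.38% to 3.44% without rat 44, 45 or 49 and 3.72% without rat 2 to 10.2% without rat 41, 8.88% without rat 42, 11.9% without rat 23 and 8.78% without rat 39. All 8 genes tested of the HSP70 and HSP110 list, which leaves out *Hspa2*, *Hspa5*, *Hspa8* and *Hsph1*, had a log2 fold change below 0 (49.9% of all genes did), with a median of -0.08, and 0 of 8 passed, while *Hspa8* was at 0.01. These genes come from the same rats and are not separate evidence. Rat 11 was the lowest bPYX+NT3 rat in *Hspa4*, *Hspa4l*, *Hspa9*, *Hspa12a* and *Hspa13*, rat 40 in *Hspa1a* and *Hspa1l*, and rat 39 in *Hspa14*.

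For NT3 against GFP 1 of the 106 passed, a share of 0.943% beside 1.73% of all genes. This was *Dnajb14*, a J-domain protein of the ER membrane, at 61.7 ± 6.49 CPM with GFP and 52.8 ± 7.91 CPM with NT3 (SD, n = 6), a log2 fold change of -0.23 (edgeR p = 0.0467, adjusted p = 0.8512, exact permutation p = 0.0671), which passed in 2 of 12 fits without 1 rat. The count rose to 22 without rat 57, where 19.8% of all genes passed, and was 0 without rat 5, 21, 11 or 17, 2 without rat 18 or 40 and 3 without rat 23 or 39.

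The close relatives and regulators fixed by name gave no call in any comparison. *Hspa1a*, the stress-inducible HSP70 whose coding sequence is nearly identical to that of *Hspa1b*, was at 18.0 ± 2.17 CPM (naïve), 15.7 ± 1.70 CPM (bPYX+GFP) and 16.3 ± 2.79 CPM (bPYX+NT3; SD, n = 6). Read-pairs that map to several places were not counted, so its level is uncertain. The 250 bases before the annotated start of *Hspa1a* held neither element, and nor did those of *Hspa1l* and *Hsp90ab1*. The annotated start may not be the one used in DRG, and elements farther away were not searched for. *Hspa1l* was at 1.33 ± 0.324, 1.14 ± 0.405 and 1.30 ± 0.427 CPM in the same order. *Hsp90ab1*, the constitutive HSP90, was at 2082 ± 89.9, 2156 ± 121 and 2158 ± 153 CPM. *Cryab*, a small heat shock protein, was at 78.1 ± 17.7, 65.9 ± 19.3 and 76.4 ± 18.9 CPM, and *Bag3* at 72.8 ± 3.62, 77.5 ± 9.99 and 80.2 ± 13.5 CPM. The transcription factors were at 9.75 ± 2.48, 10.4 ± 3.48 and 12.3 ± 4.72 CPM (*Hsf1*) and at 146 ± 16.7, 146 ± 25.5 and 136 ± 16.2 CPM (*Hsf2*). The smallest p of these 7 genes was 0.0727, for *Hspa1a* between bPYX+GFP and naïve rats (edgeR, adjusted p = 0.9998).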

How the data were processed

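Poly(A) RNA of pooled C6-C8 ganglia was sequenced in 18 rats, 6 per group, with 1 library per rat. Per the labels and the study's methods, the authors aligned paired reads to Rnor_6.0 with TopHat2, removed duplicates with Picard and counted read-pairs per RefSeq identifier with HTSeq, and deposited these raw counts without normalization. Read-pairs on several locations (mean 21.1%) and on no feature (mean 33.3%) stayed out of library sizes. Depth was 10057787 to 16002410 read-pairs on genes, which bounds the precision of low genes. Identifiers were named from RefSeq (14195 of 15075), and *Dnajb1* and *Manf* from the study's own pairing of identifiers and symbols.

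Genes with more than 10 read-pairs in at least 6 of 12 rats entered a quasi-likelihood test with TMM scaling, 2 groups per fit and no covariate (glmQLFit and glmQLFTest of edgeR 4.0.16, R 4.3.3). Calls used the study's unadjusted p under 0.05, with Benjamini-Hochberg values over all genes beside them. CPM and log2 CPM (prior count 2) used TMM over the 18 rats. Single genes and lists were compared by two-sided exact permutation over 924 splits, and correlations by 100000 permutations within groups (20000 where rats were left out). Python 3.11.15, numpy 2.4.6, scipy 1.17.1, pandas 2.3.3 and matplotlib 3.10.9 were used. The fit was tested on simulated data. Alternatives were the likelihood ratio test, DESeq2 1.42.0, other size factors, filters, fits and groupings, a replicate block and leaving out each rat. Leaving out rats 11 and 57 together was chosen after seeing the data. Genes named are the members, listed chaperones with p under 0.05 and 7 fixed relatives. The members and lists were chosen with earlier results of these data known. Rats of a group are separate animals. Small RNA data were not analysed here, and 1 gene of the lists is not reported here.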

Additional observations from a re-analysis of the deposited data

Results flagged for a closer look

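In 3 of 24 sets of 6 rats (8 genes in 3 groups), 1 rat lay apart from the other 5, with a gap to its neighbour of more than 0.625 of the range of the group. Chance gives about 1 such set in 20. *Hspb1* was at 47.1 CPM in rat 57 of the bPYX+GFP group, where the next rat was at 27.7 (gap 0.723 of the range). It was at 81.6 CPM in rat 11 of the bPYX+NT3 group, where the next was at 42 (gap 0.627). *Hspa8* was at 1275 CPM in rat 2 of the bPYX+NT3 group, below the next rat at 1331 (gap 0.647). Rats 11 and 57 are also the 2 whose libraries had the lowest no-feature shares.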

How the results depend on the processing

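Under alternatives other than leaving out 1 rat, 321 log2 fold changes of the members and the called chaperones kept their direction and their side of the threshold. Another 30 turned, 17 lost a call, 3 gained one and 1 changed in size (*Hspa2* in the grouping by record titles). Counts of calls and of pairs are not in this tally. Those that changed by more than 1.5 times, or to or from 0, are given below. The 7 heat shock genes kept 0 calls between bPYX+GFP and naïve rats in all of these but one, the grouping by record titles. The single call for NT3 against naïve, *Hspa5*, became 0 calls with DESeq2 size factors, with library size alone, in 1 fit over the 3 groups, with the no-feature share as covariate, and without rats 11 and 57. Library size alone gave 5 chaperone calls for GFP against naïve and 5 covarying pairs, and log2 fold changes of 0.0034 (*Hsph1*) and 0.022 (*Dnajb1*) for NT3 against naïve and 0.010 (*Hspa5*) for NT3 against GFP. It lowered the share of all genes below 0 for NT3 against GFP from 48.7% to 38.4%, and the called split from 125 higher and 76 lower to 167 and 41. The no-feature covariate gave 9 chaperone calls for GFP against naïve (7.31% of all genes passed) and 2 for NT3 against GFP, with 0.059 (*Hsp90aa1*) and 0.0050 (*Hsph1*) for NT3 against naïve and 0.022 (*Hspa5*), -0.023 (*Hspb8*) and 0.053 (*Hsp90aa1*) for NT3 against GFP. With 1 fit over the 3 groups there were 0 chaperone calls for NT3 against naïve and 2 for NT3 against GFP, and DESeq2 gave 5 for NT3 against naïve. Without rats 11 and 57 there were 16 chaperone calls (12.7% of all genes passed) and 1 exact permutation call (*Hspa8*) for NT3 against GFP and 0 covarying pairs, and *Hspb1* turned to -0.16 (GFP against naïve), *Hsp90aa1* to 0.021 (NT3 against naïve) and *Hspb8* to -0.019 (NT3 against GFP). The cause of these changes was not tested.

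Grouping the counts by the titles of the records they are attached to mixes the groups for 17 of 18 rats. It gave 2, 0 and 1 heat shock calls and 7, 1 and 4 chaperone calls for GFP against naïve, NT3 against naïve and NT3 against GFP. Log2 fold changes that turned were, for GFP against naïve, -0.065 (*Hspa8*), -0.55 (*Hspb1*), -0.054 (*Hspb8*) and -0.016 (*Hsph1*). For NT3 against naïve they were 0.086 (*Hspa2*), 0.077 (*Hspa5*), -0.011 (*Hspa8*), -0.63 (*Hspb1*), -0.048 (*Hspb8*), 0.015 (*Hsp90aa1*), 0.065 (*Hsph1*), 0.057 (*Hsp90b1*), -0.35 (*Unc45a*) and -0.34 (*Hsf4*). For NT3 against GFP they were 0.37 (*Hspa5*), 0.054 (*Hspa8*), -0.083 (*Hspb1*), 0.081 (*Hsph1*) and 0.098 (*Dnajb14*).

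The replicate block by the number in the titles gave 2 heat shock calls and 25 chaperone calls for NT3 against naïve, and 0 chaperone calls for NT3 against GFP, with 316, 2962 and 130 calls over all genes. Same-numbered rats had deviations correlated above 0.1 in 2, 5 and 3 of 6 pairs, and 1, 3 and 1 rats correlated best with their own number. Both counts were highest for NT3 against naïve. The numbers follow the rising rat number within each group, and for that reason they were not taken to pair the rats.

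Leaving out each rat in turn gave 0 to 1, 0 to 1 and 0 to 0 heat shock calls, 2 to 8, 0 to 8 and 0 to 22 chaperone calls, 0 to 1 exact permutation calls in each comparison, and 0 to 2 covarying pairs. Ranges that crossed 0 were -0.16 to 0.22 (*Hspb1*) and -0.031 to 0.026 (*Hsph1*) for GFP against naïve, -0.019 to 0.027 (*Hspa8*), -0.14 to 0.023 (*Hsp90aa1*), -0.064 to 0.0045 (*Hsph1*) and -0.064 to 0.030 (*Dnajb1*) for NT3 against naïve, and -0.11 to 0.075 (*Hspa5*) and -0.028 to 0.032 (*Hspb8*) for NT3 against GFP. Depth was lowest for *Hspb1*, with 157 read-pairs behind its lowest value.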
